A study of Mus musculus with 21 samples.

Results

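The proteasome genes of mouse dendritic cells were examined across 3 genotypes and 7 stimulation conditions. They were chosen by name: all array probes annotated with a symbol that starts with Psma, Psmb, Psmc, Psmd, Psme or Psmg followed by a digit, with each gene represented by its probe of highest mean. This gave 45 of the 16593 named genes on the array, of which 43 were bright enough to be tested. Among them are the immunoproteasome genes Psmb8, Psmb9, Psmb10, Psme1 and Psme2 and 30 constitutive subunits, of which 28 were tested. Psma1 and Psma6, both of the core's outer ring, fell short of the brightness limit, an intensity of 47.3 that had to be exceeded on at least 3 arrays. Their 3rd highest intensities were 40.7 and 44.3, and the nearest genes inside the limit, Psmd2 and Psmd1, had 65.9 and 78.8. Psmd3, Psmg4, Psmb11 and Psma8 were not analysed here. Psmc3ip and Psme3ip1 match the name rule but encode no proteasome subunit, and they are given apart from the subunits.

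The cells were bone marrow-derived dendritic cells (BMDCs) of strain C57Bl6, of the genotypes crel-/-relb-/-, relb-/- and wild type (WT). Relb encodes RelB and Rel encodes c-Rel, members of the NF-kB family of transcription factors. crel-/-relb-/- cells lack both, and relb-/- cells lack RelB alone. Each genotype was measured unstimulated (0 h) and at 1, 8 and 24 h of stimulation with either CpG (DNA that TLR9 senses) or Pam3CSK4 (a lipopeptide that TLR2 senses together with TLR1). There was 1 Illumina bead array for each genotype and condition, 21 arrays in all and 7 per genotype, so no condition had a replicate. The genotype comparisons ask how proteasome transcripts depended on RelB and c-Rel, and the comparisons over time ask how they changed after activation. Values are the authors' deposited normalized intensities on a linear scale. As background was not subtracted, the differences of dim genes are understated. Precision is limited by how few arrays there are.

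The proteasome is the barrel-shaped protease that degrades ubiquitin-tagged proteins. Its core particle is built of outer rings of alpha subunits (Psma genes) and inner rings of beta subunits (Psmb genes), and the regulatory cap consists of a base with ATPases (Psmc genes) and a lid (Psmd genes). In immune cells, Psmb9, Psmb10 and Psmb8 can take the places of the catalytic subunits Psmb6, Psmb7 and Psmb5 during assembly, which forms the immunoproteasome. Psme1 and Psme2 form the PA28 activator ring that can sit on the core in place of a cap. Interferons induce these 5 genes, and the peptides the immunoproteasome cuts are loaded onto MHC class I molecules.

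The array medians lay between 47.1 and 47.4, and no 2 arrays held identical values. Rel gave intensities of 33.6 to 45.5 in crel-/-relb-/- cells, against 100.9 to 214.1 in relb-/- and 61.1 to 206.5 in WT cells. Relb gave 60.6 to 179.7 in crel-/-relb-/- and 65.9 to 152.7 in relb-/- cells, compared with 148.3 to 267 in WT cells, so its lowest WT array lay inside the mutants' range. Where the Relb probe lies relative to the deleted part was not examined. Of 10 markers of dendritic cells, 1 (Flt3) was below the median of all values on every array. One array, that of crel-/-relb-/- cells after 24 h with CpG, stood apart from the rest: its residual spread in the fit was 0.189 (SD, log2), against 0.0966 to 0.140 on the others, and results that rest on it are given with and without it. The summed intensity of 6 T and NK cell genes was 320.7 to 368.5 on the crel-/-relb-/- arrays and 275.5 to 343.1 on the relb-/- arrays, both below the 499.7 to 661 of the WT arrays. Whether the arrays of a genotype stem from separate cultures or animals is not given in the labels. The p-values of the genotype comparisons therefore speak to the constancy of a difference across conditions. In the comparisons over time and between the agents, the genotypes stand in for replicates of a condition. Those p-values speak to the constancy of a change across WT and mutant cells, not across repeated cultures of a genotype. In bulk samples, fewer cells of a type and less RNA per cell cannot be told apart.

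Immunoproteasome genes were called lower in crel-/-relb-/- cells against each of the other genotypes, while the catalytic subunits they replace, each by its chosen probe, did not pass the test in any genotype comparison with all arrays. Without the array that stood apart, Psmb6 was called lower in crel-/-relb-/- against relb-/- cells, by -0.19 ± 0.06 (adjusted p = 0.0252). Against WT cells, 3 of the 5 passed the test as lower in crel-/-relb-/- cells: Psmb10, Psmb9 and Psme1. Against relb-/- cells, all 5 passed as lower. Of all 10587 genes tested, 7.74% were called lower and 7.65% higher against WT, and 9.28% lower and 10.5% higher against relb-/- cells. A gene was called where limma's test, with Benjamini-Hochberg adjustment over all genes tested, gave an adjusted p under 0.05.

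Psmb10 encodes the immunoproteasome subunit with trypsin-like activity. Its intensity in crel-/-relb-/- cells was 933 at 0 h, then 981, 1492 and 1247 at 1, 8 and 24 h of CpG, and 885, 780.3 and 723 at 1, 8 and 24 h of Pam3CSK4. In relb-/- cells the same conditions gave 1034, then 1201, 1788 and 1668 with CpG and 1137, 1414 and 1476 with Pam3CSK4. WT cells had 1507, then 1505, 1980.1 and 1381 with CpG and 1200.3, 1604 and 994 with Pam3CSK4. The crel-/-relb-/- array was the lowest of the 3 genotypes in 7 of 7 conditions, although the ranges over all conditions overlapped. The log2 difference from WT was -0.54 ± 0.11 (SE, adjusted p = 0.00137), a level 0.686 times that of WT. A second, dimmer probe of Psmb10 gave -0.18 ± 0.14 against WT and was not called (adjusted p over probes 0.440), and with the gene's probes averaged the difference was -0.36 and missed the threshold (adjusted p = 0.0502).

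Psmb9 encodes the subunit that takes the place of Psmb6. In crel-/-relb-/- cells it had 687 at 0 h, then 690.0, 1116 and 1412 at 1, 8 and 24 h of CpG, and 805, 698 and 729.9 with Pam3CSK4. In relb-/- cells it had 1172, then 1201, 1377 and 1462 with CpG and 1127, 1232 and 1188 with Pam3CSK4. WT cells had 1449.8, then 1239, 1607 and 1042 with CpG and 1142, 1157 and 863 with Pam3CSK4. Leaving aside 24 h with CpG, where the crel-/-relb-/- array exceeded the WT array, the crel-/-relb-/- cells were the lowest in every condition. At 0 h the difference from WT was the widest of the 7, at -1.08 on the log2 scale. Over all conditions it was -0.50 ± 0.12 (adjusted p = 0.00688), lower in 6 of 7 conditions.

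Psmb8, the subunit with chymotrypsin-like activity, was dimmer. Its intensity had a lowest, median and highest value of 128, 163 and 202 in crel-/-relb-/- cells, 165, 194 and 245 in relb-/- cells, and 152, 199.6 and 235 in WT cells. The groups overlapped, and the difference of crel-/-relb-/- from WT cells, -0.23 ± 0.09, was not called (adjusted p = 0.0853). The array at 24 h with CpG was again the one condition of 7 in which crel-/-relb-/- cells had the higher value, at 202 against 171 in WT cells.

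For the PA28 subunits, Psme1 had a lowest, median and highest intensity of 1212, 1523.5 and 1908 in crel-/-relb-/- cells, 2014, 2069 and 2573 in relb-/- cells, and 1652.5, 1846 and 2218 in WT cells. All 7 crel-/-relb-/- values lay below all 7 relb-/- values. The difference from WT was -0.29 ± 0.06 (adjusted p = 0.00353), lower in 7 of 7 conditions, and a second probe gave -0.36 ± 0.08. Psme2 had 222, 333 and 389.5 in crel-/-relb-/- cells, 365, 461 and 517 in relb-/- cells, and 282, 403 and 472 in WT cells. Its crel-/-relb-/- and relb-/- ranges overlapped slightly, and its difference from WT, -0.24 ± 0.08, was not called (adjusted p = 0.0587). Psme2 has a near-identical retrogene copy, Psme2b, and how far the probe also reads that copy was not tested.

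**Figure D1:**
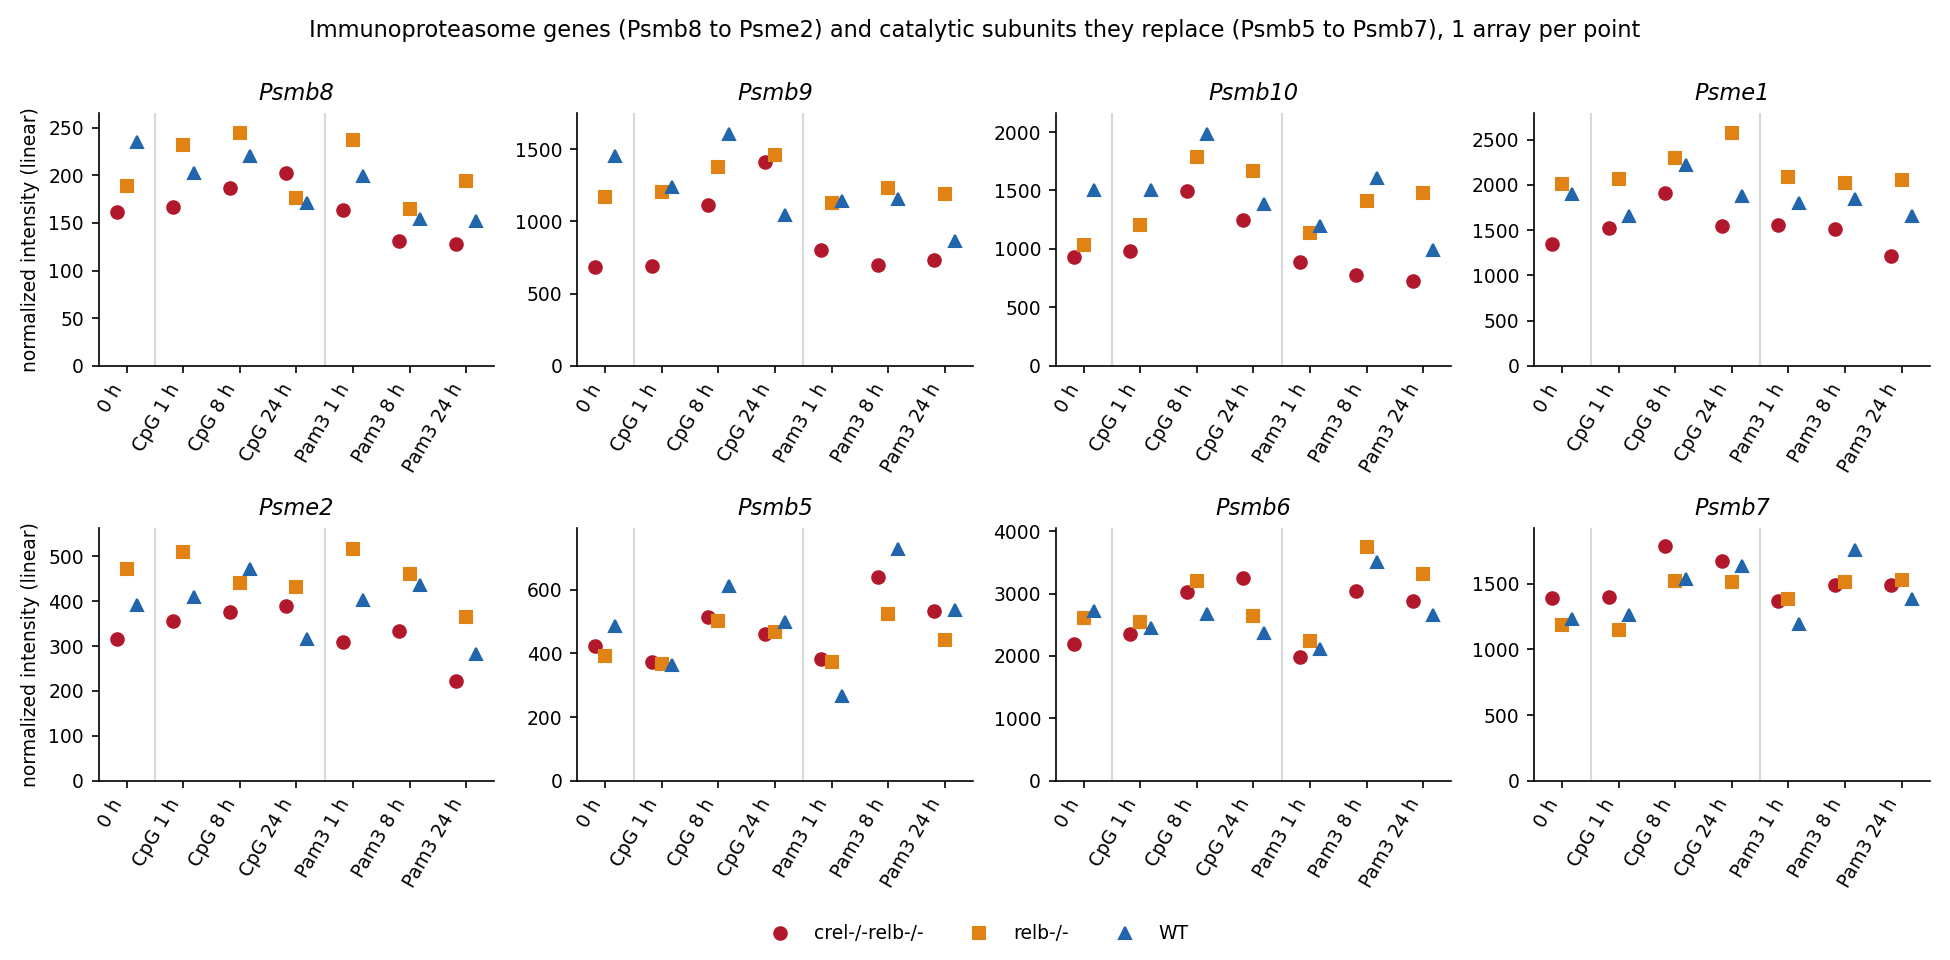
Normalized intensity (linear scale from 0) of the 5 immunoproteasome genes and of Psmb5, Psmb6 and Psmb7, with 1 point per array, conditions along the x axis and the genotypes crel-/-relb-/-, relb-/- and WT in that order within a condition. For Psmb10 and Psme1 the crel-/-relb-/- point is below both others in each condition, while for Psmb9 it exceeds WT at 24 h with CpG (1412 against 1042); the points of Psmb5, Psmb6 and Psmb7 interleave.

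Between crel-/-relb-/- and relb-/- cells, which both lack RelB and differ by c-Rel, the 5 immunoproteasome genes differed by -0.56 ± 0.12 (Psmb9, adjusted p = 0.00197), -0.52 ± 0.06 (Psme1, 7.80e-06), -0.49 ± 0.08 (Psme2, 2.41e-04), -0.48 ± 0.11 (Psmb10, 0.00282) and -0.34 ± 0.09 (Psmb8, 0.00855). The crel-/-relb-/- value was lower in 7 of 7 conditions for 4 of them and in 6 of 7 for Psmb8. The second probe of Psmb10 gave -0.23 ± 0.14 and was not called (adjusted p over probes 0.277), while that of Psme1 gave -0.51 ± 0.08. In relb-/- against WT cells, Psme1 alone of the 5 was called, higher by 0.22 ± 0.06 (adjusted p = 0.0279, 7 of 7 conditions). Psme2 was at 0.25 ± 0.08 (adjusted p = 0.0566), Psmb8 at 0.11 ± 0.09, Psmb9 at 0.06 ± 0.12 and Psmb10 at -0.06 ± 0.11. Psmb8, Psmb9 and Psmb10 were lower than in WT in 1, 4 and 5 of 7 conditions. Their differences were -0.31, -0.31 and -0.54 at 0 h. At 24 h they were 0.04, 0.49 and 0.27 with CpG and 0.35, 0.46 and 0.57 with Pam3CSK4. Each of these values rests on 1 array per genotype. Psme1's call in relb-/- cells was lost when any of 5 of the 7 conditions was left out (1 h and 24 h with CpG, and 1, 8 and 24 h with Pam3CSK4), with an adjusted p of up to 0.0911, and also when the gene's probes were averaged (0.19, adjusted p = 0.0504). The comparisons share arrays and are not independent of each other.

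The array that stood apart bears on these counts. Without it, all 5 immunoproteasome genes were called lower in crel-/-relb-/- than in WT, with Psmb8 at -0.31 ± 0.07 (adjusted p = 0.00475) and Psme2 at -0.31 ± 0.07 (adjusted p = 0.00414). Psmb9 then differed by -0.62 ± 0.10, Psmb10 by -0.58 ± 0.11 and Psme1 by -0.28 ± 0.06, with 17.3% of all genes called. The comparison with relb-/- cells again had 5 of 5 lower without it. There 9.28% of all genes were lower with all arrays, and the share without that array is not given here. Psme2 was then also called higher in relb-/- than in WT (adjusted p = 0.0140).

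The catalytic subunits that the immunoproteasome subunits replace showed no called difference with all arrays. Psmb5 had a lowest, median and highest intensity of 372, 460.0 and 639.8 in crel-/-relb-/- cells, 367, 441 and 523 in relb-/- cells and 266, 497 and 727 in WT cells. Psmb6 had 1989, 2884 and 3252 in crel-/-relb-/- cells, 2244, 2645 and 3741 in relb-/- cells and 2119, 2664 and 3501 in WT cells. Psmb7 had 1368, 1489 and 1787 in crel-/-relb-/- cells, 1146, 1509.7 and 1532 in relb-/- cells and 1192, 1385 and 1761 in WT cells. The groups overlapped for all 3 genes. Their differences between crel-/-relb-/- and WT cells were -0.03 ± 0.09 (Psmb5), 0.01 ± 0.07 (Psmb6) and 0.09 ± 0.07 (Psmb7), with adjusted p of 0.386 or more. Against relb-/- cells they were 0.11 ± 0.09, -0.12 ± 0.07 and 0.12 ± 0.07 in the same order, with adjusted p of 0.229 or more, and Psmb6 passed the test when the array that stood apart (adjusted p = 0.0252) or the whole condition of 24 h with CpG (-0.19, adjusted p = 0.0358) was left out. The Psmb6 difference between crel-/-relb-/- and WT cells turned in sign, to -0.04, after quantile normalization. Another probe of Psmb7 was called higher in crel-/-relb-/- than in WT, by 0.32 ± 0.09 (adjusted p over probes 0.0271), and in relb-/- against WT cells by 0.31 ± 0.09 (adjusted p over probes 0.0402).

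Within an array, each immunoproteasome subunit was set against the subunit it replaces. The log2 ratio of Psmb10 over Psmb7 was lower in crel-/-relb-/- than in WT in 7 of 7 conditions, by -0.64 ± 0.23 (SD, n = 7). The ratio of Psmb9 over Psmb6 was lower in 7 of 7, by -0.51 ± 0.28, with a smallest difference of -0.02 at the array that stood apart. Psmb8 over Psmb5 was lower in 5 of 7, by -0.20 ± 0.36. Averaged over the 5 immunoproteasome genes and the 28 constitutive subunits, the difference of mean log2 levels shifted by -0.39 ± 0.20 (SD, n = 7 conditions) in crel-/-relb-/- against WT cells and was below 0 in 6 of 7. It shifted by 0.04 ± 0.19 in relb-/- against WT cells, below 0 in 4 of 7, and by -0.43 ± 0.15 in crel-/-relb-/- against relb-/- cells, below 0 in 7 of 7. The mean of the constitutive subunits itself moved by 0.03 ± 0.04, 0.07 ± 0.02 and -0.05 ± 0.05 in these comparisons.

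**Figure D2:**
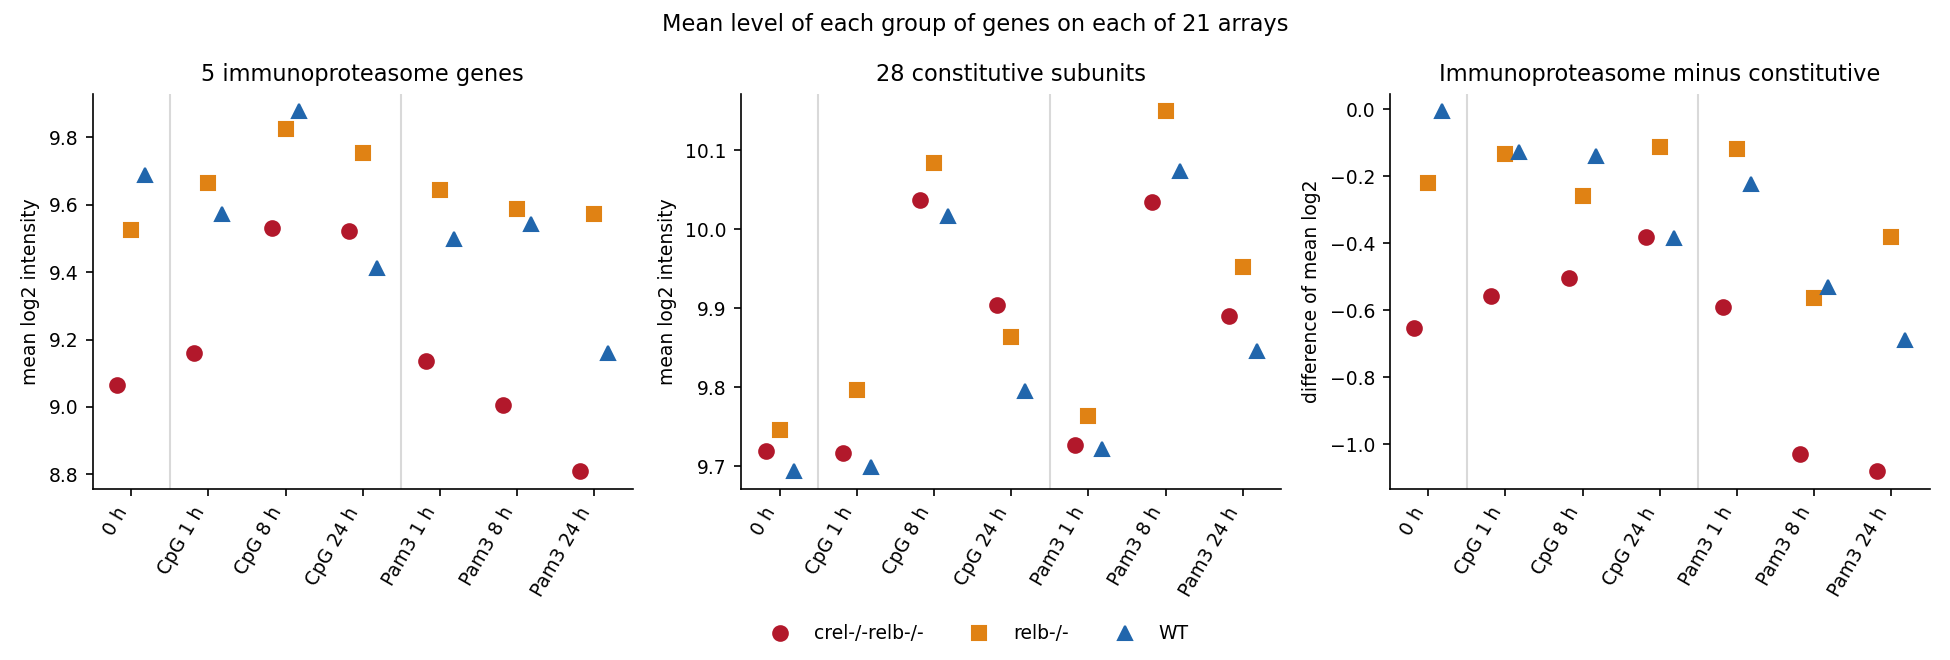
Mean log2 intensity of the 5 immunoproteasome genes (left), of the 28 constitutive subunits (middle) and their difference (right) on each of the 21 arrays, by condition and genotype; the y axes do not start at 0, and since probes differ in brightness only shifts along an axis are meaningful. In the left and right panels the crel-/-relb-/- points are the lowest in every condition but 24 h with CpG, where in the left panel WT is lowest and in the right panel crel-/-relb-/- and WT nearly coincide, while the middle panel spreads by time.

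The promoters of these genes are shown to set immunoproteasome genes beside catalytic subunits that they replace. Sequences are RefSeq's for build GRCm38.p6, 250 bases before to 50 bases after the gene's start, written 5′ to 3′ on the gene's strand. Capitals mark matches, on either strand, to the gamma-interferon activation site TTCNNNGAA (Psmb8), the interferon-stimulated response element (ISRE, Psme1) or the antioxidant response element TGACNNNGC (Psmb5, Psmb6). Psmb9 held none of the motifs searched, and it is printed because this window is shared with a neighbouring gene.
Psmb8 promoter, chr17:34197945-34198244, plus strand: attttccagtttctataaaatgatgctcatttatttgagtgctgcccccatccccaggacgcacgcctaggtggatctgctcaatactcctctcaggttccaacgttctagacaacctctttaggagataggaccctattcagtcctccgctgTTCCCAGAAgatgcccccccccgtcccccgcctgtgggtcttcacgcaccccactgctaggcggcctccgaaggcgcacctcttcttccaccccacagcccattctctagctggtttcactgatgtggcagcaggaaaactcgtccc
Psmb9 promoter, chr17:34187281-34187580, minus strand: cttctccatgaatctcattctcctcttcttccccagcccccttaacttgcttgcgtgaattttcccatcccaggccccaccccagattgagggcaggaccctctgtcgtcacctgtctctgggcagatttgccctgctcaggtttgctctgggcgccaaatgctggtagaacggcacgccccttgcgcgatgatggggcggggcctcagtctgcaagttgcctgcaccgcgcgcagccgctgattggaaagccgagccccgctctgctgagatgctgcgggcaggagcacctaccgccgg
Psme1 promoter, chr14:55578244-55578543, plus strand: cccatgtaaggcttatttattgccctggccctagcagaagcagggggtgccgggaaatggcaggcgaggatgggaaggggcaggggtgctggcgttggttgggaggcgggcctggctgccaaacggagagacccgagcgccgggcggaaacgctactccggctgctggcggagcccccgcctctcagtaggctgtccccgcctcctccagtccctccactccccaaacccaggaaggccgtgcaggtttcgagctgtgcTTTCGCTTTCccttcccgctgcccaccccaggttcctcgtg
Psmb5 promoter, chr14:54617946-54618245, minus strand: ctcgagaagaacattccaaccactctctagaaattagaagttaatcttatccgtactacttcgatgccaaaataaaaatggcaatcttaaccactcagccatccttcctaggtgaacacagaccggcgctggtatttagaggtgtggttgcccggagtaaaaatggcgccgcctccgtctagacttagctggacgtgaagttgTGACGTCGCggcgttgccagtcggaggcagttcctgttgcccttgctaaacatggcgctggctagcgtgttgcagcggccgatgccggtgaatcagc
Psmb6 promoter, chr11:70525107-70525406, plus strand: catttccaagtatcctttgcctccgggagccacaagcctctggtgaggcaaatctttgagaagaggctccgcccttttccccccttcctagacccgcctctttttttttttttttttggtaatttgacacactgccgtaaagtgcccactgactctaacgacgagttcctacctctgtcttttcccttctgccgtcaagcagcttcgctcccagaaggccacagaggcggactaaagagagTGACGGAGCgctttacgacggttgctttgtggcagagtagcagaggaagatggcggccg

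The Psmb8 match starts 97 bases before the gene's start and reads the same motif on both strands, and the Psme1 match, on the minus strand, starts 9 bases after the start. The matches in Psmb5 and Psmb6 start 47 and 9 bases before it. The ISRE was in 1 of 5 immunoproteasome promoters, in 2 of 25 constitutive promoters (Psmb3 and Psmd4) and in 3.99% of the promoters of all 27025 genes in the table. The activation site TTCNNNGAA was in 1 of 5, in 1 of 25 (Psmd2) and in 9.55%. The antioxidant element TGACNNNGC was in 0 of 5, in 4 of 25 (Psmb5, Psmb6, Psmc6 and Psmd12) and in 14.0%. The NF-kB (kappaB) consensus was in 0 of 5, in 5 of 25 (Psma6, Psma7, Psmd11, Psmd12 and Psmd13) and in 9.55%. The motifs can overlap each other. A match is a description of letters in this window, and the absence of one says nothing about a factor.

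The Psmb9 window lies on the minus strand and shares 275 bases with the Tap1 window on the plus strand. Tap1, a subunit of the transporter that carries peptides into the endoplasmic reticulum, lies between Psmb9 and Psmb8 on chromosome 17 in the RefSeq order, with Tap2 on the far side of Psmb8. Psme1 and Psme2 lie on chromosome 14 with Emc9 between them and Rnf31 and Irf9 next. Tap1 was lower in crel-/-relb-/- than in WT by -0.47 ± 0.12 (adjusted p = 0.00808, 6 of 7 conditions), while Tap2, singled out after its values were seen, differed by 0.09 ± 0.14 and was not called. Against relb-/- cells the difference of Tap1 was -0.75 ± 0.12 (adjusted p = 8.70e-05).

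Among all 43 tested proteasome genes, 2 were higher and 5 lower in crel-/-relb-/- than in WT, in a background of 15.4% of genes called, and their median log2 difference was -0.02 against 0.00 over all genes. In relb-/- against WT cells, 5 were higher and 0 lower (background 11.7%, of which 6.03% higher and 5.65% lower; 13 of the 43 at an unadjusted p under 0.05, median 0.06 against -0.01). In crel-/-relb-/- against relb-/- cells, 1 was higher and 10 lower (background 19.8%, median -0.03 against 0.01). Of the 28 constitutive subunits, 2 were higher and 2 lower in crel-/-relb-/- against WT cells, and 4 higher and 0 lower in relb-/- against WT cells. In crel-/-relb-/- against relb-/- cells, 1 was higher and 5 lower. In total these counts lie near the shares of all genes called, 15.4%, 11.7% and 19.8% in that order. The count of 5 in relb-/- cells fell to 2 or 3 when any of 5 conditions was left out (0 h, 1 and 24 h with CpG, 1 and 8 h with Pam3CSK4), and the count of 11 between the mutants fell to 7 without 8 h with Pam3CSK4. Without the array that stood apart the counts were 10 against WT and 13 against relb-/- for crel-/-relb-/- cells, and 7 for relb-/- against WT cells. More of all genes were then also called between crel-/-relb-/- and WT cells, so the higher count there cannot be read as particular to proteasome genes. For the other comparisons the share of all genes without that array is not given here.

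In the lid, Psmd14, the deubiquitinase that removes ubiquitin chains from substrates, was higher in both mutants. It had a lowest, median and highest intensity of 484, 530.0 and 709 in crel-/-relb-/- cells, 424, 537 and 783 in relb-/- cells, and 312, 424 and 485 in WT cells. Most mutant arrays exceeded the WT range. The log2 differences from WT were 0.42 ± 0.10 in crel-/-relb-/- (adjusted p = 0.00591, 7 of 7 conditions) and 0.37 ± 0.10 in relb-/- cells (adjusted p = 0.0179, 6 of 7). Psmd8, another lid subunit, had 1729, 2319.6 and 2541 in crel-/-relb-/- cells, 1342, 1711 and 1966 in relb-/- cells, and 1602, 1879 and 2034 in WT cells. It was higher in crel-/-relb-/- than in WT by 0.31 ± 0.06 (adjusted p = 0.00217) and than in relb-/- cells by 0.43 ± 0.06 (adjusted p = 5.65e-05, 7 of 7). Psmd7, the inactive partner of Psmd14, was lower in crel-/-relb-/- than in WT by -0.23 ± 0.08 (adjusted p = 0.0409). Its second probe differed by -0.07 ± 0.07 and was not called, and without the array that stood apart the gene's own call was lost (-0.21 ± 0.08, adjusted p = 0.0604).

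In the core's outer ring, Psma7 had a lowest, median and highest intensity of 809, 1070.3 and 1328 in crel-/-relb-/- cells, 1055, 1177 and 1485 in relb-/- cells, and 1059, 1212 and 1573 in WT cells. It was lower in crel-/-relb-/- than in WT by -0.33 ± 0.08 (adjusted p = 0.00715, 6 of 7 conditions), and the array that stood apart was again the exception. Against relb-/- cells, Psma4, Psma7 and Psma5 were lower in crel-/-relb-/- cells by -0.31, -0.27 and -0.22. The second probe of Psma7 was called neither against WT (-0.23 ± 0.08, adjusted p over probes 0.0547) nor against relb-/- cells (-0.13 ± 0.08, adjusted p over probes 0.272). Of the base ATPases, which unfold substrates, Psmc1 and Psmc2 were higher in relb-/- than in WT by 0.31 ± 0.07 and 0.29 ± 0.08. Psmc3 was lower in crel-/-relb-/- than in relb-/- cells by -0.22 ± 0.08, a call lost without the array that stood apart (-0.20 ± 0.08, adjusted p = 0.0701). None of the 4 structural beta subunits, 3 non-ATPase base subunits, 6 assembly chaperones or 2 other activators was called in any of the 3 genotype comparisons. Among these, the base subunits Psmd2 (47.4 to 74.2) and Psmd1 (56.6 to 96.1) and the chaperone Psmd9 (65.1 to 112.7) were dim. Their intensities lay near the brightness limit of 47.3, so a missing call says little about them.

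**Figure D3:**
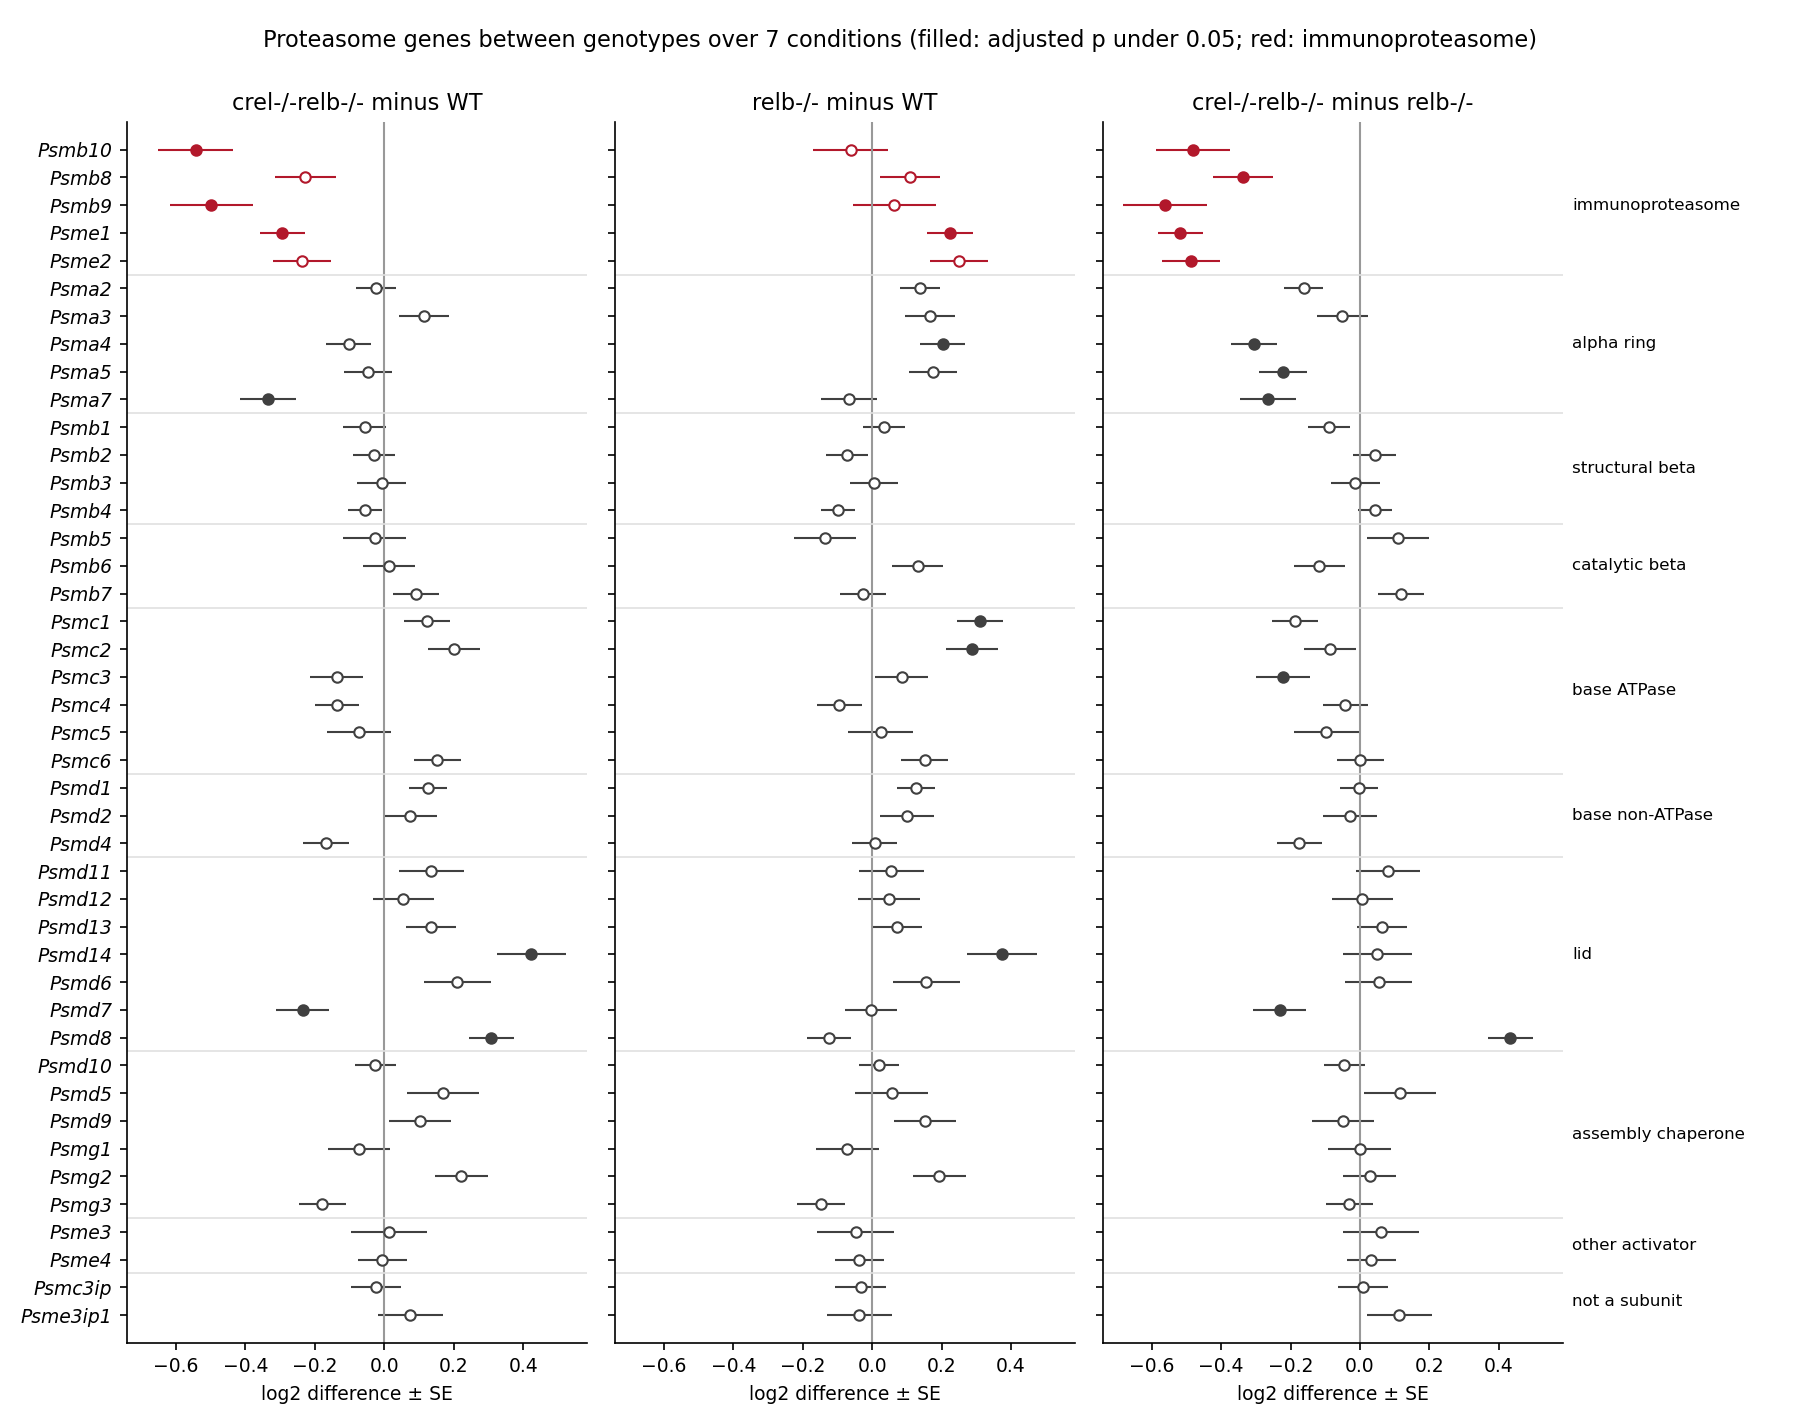
Log2 difference between genotypes, with its SE, for each of the 43 tested proteasome genes ordered by role, over 7 conditions; filled points have an adjusted p under 0.05 and red points are the immunoproteasome genes. Between crel-/-relb-/- and WT cells the red points Psmb10, Psmb9 and Psme1 are filled and left of 0, while the filled points Psmd14 and Psmd8 are right of 0.

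The genotype differences were not found to depend on time. For the difference between late (8 and 24 h) and early (0 and 1 h) arrays, 0 of 43 genes were called between crel-/-relb-/- and WT, relb-/- and WT, or crel-/-relb-/- and relb-/- cells, with 2 genes at an unadjusted p under 0.05 in each. The backgrounds were 0.378%, 0.170% and 0.520%. Psmb9 had the smallest adjusted p against WT, 0.397, with a late-minus-early difference that was higher in crel-/-relb-/- cells by 0.54 ± 0.22.

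Transcripts of the constitutive proteasome were higher at 8 h with both agents than at 0 h. The unstimulated arrays are of 0 h alone, so effects of the agents and of time in culture cannot be told apart. At 8 h with CpG, 18 of the 43 genes were higher and 1 lower than at 0 h, in a background of 26.3% of all genes called, 13.1% of genes higher and 13.2% lower. With Pam3CSK4, 22 were higher and 2 lower (background 26.1%, with 12.5% higher and 13.6% lower). Of the 28 constitutive subunits, 14 were higher with CpG and 20 with Pam3CSK4, and 0 were lower with either. Their median log2 change was 0.34 with CpG and 0.39 with Pam3CSK4, against 0.00 over all genes with each agent. The 2 agents share the 3 arrays at 0 h, so their changes are not independent.

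The rise reached most parts of the particle. With CpG at 8 h, 4 of 5 outer ring genes, 0 of 4 structural beta genes, 1 of 3 catalytic genes, 4 of 6 ATPases, 1 of 3 other base genes and 4 of 7 lid genes were higher. With Pam3CSK4 the counts were 4, 1, 3, 5, 1 and 6 in the same order. Psma5, an outer ring subunit, had 2867, 3270.2 and 3239 in crel-/-relb-/-, relb-/- and WT cells at 0 h, 5948, 6389 and 6165 at 8 h with CpG, and 5349, 6659 and 6200.4 at 8 h with Pam3CSK4. All 6 stimulated values at 8 h exceeded all 3 unstimulated ones, by 0.98 ± 0.11 with CpG (adjusted p = 4.17e-07) and 0.95 ± 0.11 with Pam3CSK4 (adjusted p = 5.66e-07). Psmc1, an ATPase of the base, had 348, 429 and 303 at 0 h, 558, 657 and 571 at 8 h with CpG, and 537, 681 and 550.2 at 8 h with Pam3CSK4. The groups did not overlap, and the changes were 0.74 ± 0.10 and 0.72 ± 0.10. Psmd7 of the lid rose by 0.64 ± 0.12 and 0.71 ± 0.12. The catalytic genes Psmb5, Psmb6 and Psmb7 were called higher with Pam3CSK4, by 0.53 ± 0.14, 0.45 ± 0.11 and 0.32 ± 0.10. With CpG only Psmb7 was called among them, at 0.35 ± 0.10, and Psmb5 and Psmb6 had 0.33 ± 0.14 and 0.24 ± 0.11. Psmb6 was also called there without the array that stood apart (0.24 ± 0.08, adjusted p = 0.0333).

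The assembly chaperones divided. Psmd10 (gankyrin) and Psmd5, which help assemble the base, were among the most raised members. Psmd10 had 818, 901 and 873 in crel-/-relb-/-, relb-/- and WT cells at 0 h, then 1408, 1503 and 1381 at 8 h and 1450.0, 1527 and 1351 at 24 h with CpG. With Pam3CSK4 it had 1533, 1509.7 and 1745 at 8 h and 1677, 1815 and 1606 at 24 h. All 12 values at 8 and 24 h exceeded those at 0 h, and the changes were 0.73 ± 0.09 and 0.74 ± 0.09 with CpG and 0.88 ± 0.09 and 0.98 ± 0.09 with Pam3CSK4, at 8 and 24 h in turn (adjusted p of 2.97e-06 or less). Psmd5 rose by 0.86 ± 0.16 at 8 h with CpG and by 1.01 ± 0.16 with Pam3CSK4. Psmd9, Psmg1, Psmg2 and Psmg3 were not called at 8 h with either agent, although Psmg3 was with Pam3CSK4 once the array that stood apart was left out (0.27 ± 0.10, adjusted p = 0.0443). Psmg1, which starts the assembly of the outer ring, was lower at 24 h by -0.45 ± 0.14 with CpG and -0.38 ± 0.14 with Pam3CSK4. Psme3, the nuclear relative of PA28, was lower at 24 h with CpG by -0.65 ± 0.17 (adjusted p = 0.00586) and had -0.03 ± 0.17 with Pam3CSK4. Its log2 change with CpG was widest on the array that stood apart, at -1.18 in crel-/-relb-/- cells against -0.24 in relb-/- and -0.53 in WT cells, and without that array it was -0.34 ± 0.12 (adjusted p = 0.0419). Psme4, another activator, was not called at any time. Of the genes that only share the naming, Psmc3ip, a meiotic recombination factor, was lower at 8 h with both agents (-0.43 and -0.44) and Psme3ip1 was higher at 24 h with CpG (0.52), a call lost without the array that stood apart (0.31 ± 0.13, adjusted p = 0.0789).

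Of the immunoproteasome genes, some were called higher with CpG and none with Pam3CSK4. At 8 h with CpG, 2 of 5 were higher, namely Psmb10 by 0.62 ± 0.16 (adjusted p = 0.00695) and Psme1 by 0.31 ± 0.10 (adjusted p = 0.0254). The other 3 had 0.36 ± 0.18 (Psmb9), 0.17 ± 0.13 (Psmb8) and 0.14 ± 0.13 (Psme2) and were not called. At 8 h with Pam3CSK4, 0 were higher and Psmb8 was lower by -0.37 ± 0.13 (adjusted p = 0.0454). The group's median change was 0.31 with CpG and 0.04 with Pam3CSK4, against 0.34 and 0.39 for the constitutive subunits. In WT cells, Psmb8 had 235 at 0 h, then 203, 221 and 171 at 1, 8 and 24 h of CpG and 199.6, 154 and 152 with Pam3CSK4, so the unstimulated array was the highest.

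Relative to the constitutive subunits, the immunoproteasome genes had lower means at 8 and 24 h with Pam3CSK4 in all 3 genotypes. The difference of their mean log2 levels changed from its value at 0 h by 0.06, 0.10 and -0.22 at 1 h, by -0.38, -0.34 and -0.52 at 8 h, and by -0.43, -0.16 and -0.68 at 24 h, in crel-/-relb-/-, relb-/- and WT cells in that order. With CpG the same changes were 0.10, 0.09 and -0.12 at 1 h, 0.15, -0.04 and -0.13 at 8 h and 0.27, 0.11 and -0.38 at 24 h, without a shared sign. With Pam3CSK4, the immunoproteasome mean itself changed by -0.06, 0.06 and -0.15 at 8 h and by -0.26, 0.05 and -0.53 at 24 h. The constitutive mean rose by 0.31, 0.40 and 0.38 at 8 h and by 0.17, 0.21 and 0.15 at 24 h, in the same order of genotypes. These are single arrays per value and were not tested.

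The direct comparison of the agents called 1 member at most. At 8 h, 0 of 43 differed between CpG and Pam3CSK4 (background 0.104%; 7 at an unadjusted p under 0.05), and the immunoproteasome genes had a median difference of 0.44. The values were 0.53 ± 0.13 for Psmb8 (adjusted p = 0.116), 0.53 ± 0.16 for Psmb10, 0.44 ± 0.18 for Psmb9, 0.26 ± 0.10 for Psme1 and 0.07 ± 0.13 for Psme2. Psmb8 was called at 8 h without the array that stood apart (adjusted p = 0.0319). At 24 h, 1 of 43 differed, Psmc3ip, which was higher with CpG by 0.45 ± 0.11 (adjusted p = 0.0348, background 2.47%). The immunoproteasome genes had a median of 0.40 there, with the smallest adjusted p at 0.0994 for Psme2, and a median of 0.23 without the array that stood apart. At 1 h, 0 of 43 differed (background 0.567%; 2 at an unadjusted p under 0.05).

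At 1 h, 0 of 43 genes were called against 0 h with CpG (background 0.387%) and 0 with Pam3CSK4 (background 1.53%), with 1 and 3 at an unadjusted p under 0.05. At 24 h with CpG, 10 were higher and 3 lower than at 0 h, near the background of 27.2% (14.9% higher and 12.3% lower). At 24 h with Pam3CSK4, 10 were higher and 4 lower (background 27.8%, with 14.5% higher and 13.4% lower). The largest rises with CpG were those of Psmd10, Psmd5 (0.61 ± 0.16), Psma5 (0.58 ± 0.11), Psme3ip1 and the lid subunit Psmd13 (0.48 ± 0.11), and with Pam3CSK4 those of Psmd10, Psmd5 (0.55 ± 0.16), Psma5 (0.54 ± 0.11), Psmc1 (0.50 ± 0.10) and the outer ring subunit Psma2 (0.48 ± 0.09). Besides Psme3 and Psmg1, its partner Psmg2 was lower with CpG (-0.32 ± 0.12). Without the array that stood apart, the rises with CpG were 0.72 ± 0.09 for Psmd10, 0.42 ± 0.09 for Psma5 and 0.31 ± 0.09 for Psmd13, all called, while Psmd5 (0.35 ± 0.13, adjusted p = 0.0619) and Psmg2 (-0.35 ± 0.13, adjusted p = 0.0501) were no longer called. With the same agent Psmd7, at 0.40 ± 0.13, was then among the largest rises. At 24 h with Pam3CSK4, Psmc3ip was lower by -0.71 ± 0.11 and Psmd8 by -0.42 ± 0.10. Of the constitutive subunits, 7 were higher and 0 lower at 24 h with CpG, and 8 higher and 1 lower, Psmd8, with Pam3CSK4. Among the immunoproteasome genes, Psme2 was lower at 24 h with Pam3CSK4 by -0.45 ± 0.13 (adjusted p = 0.0101), and 0 of 5 were called with CpG, also at an unadjusted p under 0.05. Without the array that stood apart, 7 members were higher and 2 lower at 24 h with CpG (background 25.1%), and 2 of the 5 immunoproteasome genes were lower at 24 h with Pam3CSK4. With all arrays, 13.4% of all genes were lower in the latter comparison, and the share without that array is not given here.

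The change between 8 and 24 h, a comparison added after the data had been seen, ran downward. With CpG, 0 genes were higher and 9 lower at 24 h than at 8 h (background 14.0%, with 8.13% higher and 5.88% lower). With Pam3CSK4, 0 were higher and 5 lower (background 11.6%, with 7.28% higher and 4.33% lower). Psmc3 and Psmc5, both ATPases, fell with both agents, by -0.53 ± 0.12 and -0.50 ± 0.14 with CpG and by -0.52 ± 0.12 and -0.52 ± 0.14 with Pam3CSK4. Psma5 fell by -0.41 ± 0.11 with each agent. Psme3 fell by -0.63 ± 0.17 with CpG, and Psme2 by -0.52 ± 0.13 with Pam3CSK4. Without the array that stood apart, Psme3 (-0.32 ± 0.12, adjusted p = 0.0897) and Psmc5 (-0.33 ± 0.14, adjusted p = 0.136) were no longer called with CpG. Psmd10 had differences of 0.01 ± 0.09 and 0.09 ± 0.09 and was not called. Without the array that stood apart, 9 genes were likewise lower with CpG but not the same ones, with 2 immunoproteasome genes, Psmb8 (-0.44 ± 0.12) and Psme2 (-0.36 ± 0.11), against 0 of 5 with all arrays.

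**Figure D4:**
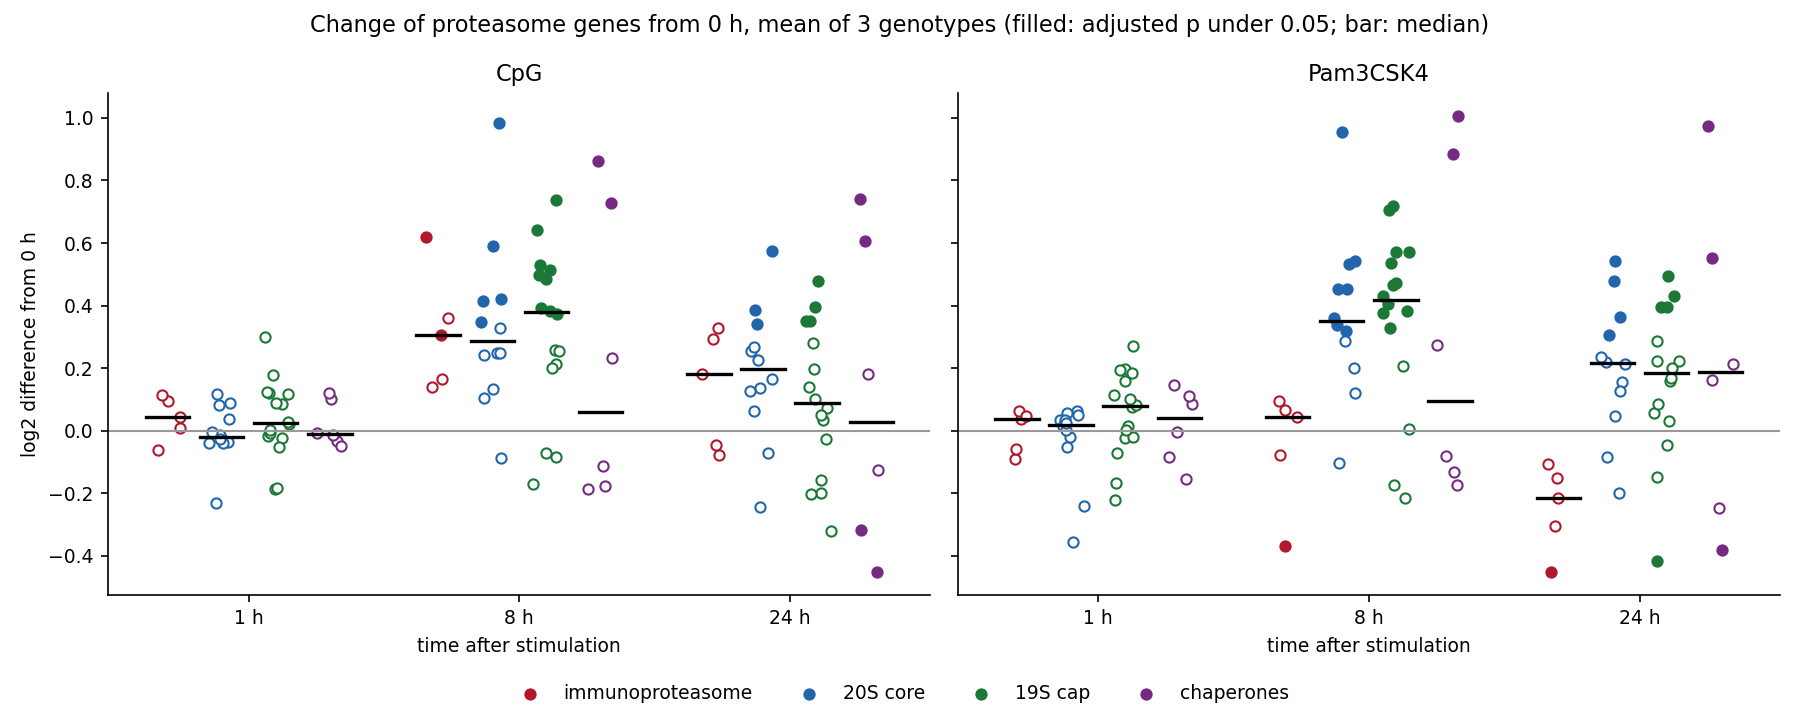
Log2 difference from 0 h, as the mean over the 3 genotypes, at 1, 8 and 24 h with CpG (left) and Pam3CSK4 (right), for the immunoproteasome genes, the core and cap subunits and the assembly chaperones; each point is a gene, filled where the adjusted p is under 0.05, and bars are medians. At 8 h the core and cap medians are raised with both agents, while the immunoproteasome median is 0.31 with CpG and 0.04 with Pam3CSK4.

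Genes that act with the proteasome were described from lists chosen with earlier results of these data in view. Of 25 listed partners and regulators, 12 were tested. At 8 h, 4 were higher and 0 lower with each agent, where 13.1% of all genes were higher with CpG and 12.5% with Pam3CSK4. Nfe2l2, a regulator of the oxidative stress response, rose by 1.44 ± 0.20 with CpG and 1.32 ± 0.20 with Pam3CSK4. Ecpas, a proteasome-binding adaptor, rose by 1.02 ± 0.22 and 1.46 ± 0.22, Vcp, the segregase that extracts ubiquitinated proteins, by 0.60 ± 0.10 and 0.57 ± 0.10, and Pomp, the maturation factor of the core, by 0.73 ± 0.11 and 0.49 ± 0.11. Nfe2l1, which drives proteasome genes when proteasome activity is short, was not called at 8 h (-0.05 ± 0.11 and 0.07 ± 0.11). Between genotypes it was the one called partner, lower in crel-/-relb-/- than in WT by -0.23 ± 0.07 and in relb-/- than in WT by -0.27 ± 0.07.

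The interferon-linked inducers of the immunoproteasome differed between the mutants. Of 6 tested, 0 were higher and 2 lower in crel-/-relb-/- than in WT, 3 higher and 0 lower in relb-/- than in WT, and 0 higher and 5 lower in crel-/-relb-/- than in relb-/- cells, where 15.4%, 11.7% and 19.8% of all genes were called. Irf1, a transcription factor known to induce Psmb9 and Tap1, had a lowest, median and highest intensity of 565, 921 and 2005 in crel-/-relb-/- cells, 786, 1899.9 and 2648 in relb-/- cells, and 1144, 2075 and 3801 in WT cells. It was lower in crel-/-relb-/- than in WT in 7 of 7 conditions, by -1.02 ± 0.14 (adjusted p = 2.95e-05), and differed by -0.37 ± 0.14 in relb-/- cells without being called. Nlrc5, the transactivator of MHC class I genes, was lower in crel-/-relb-/- than in WT by -0.48 ± 0.14 (adjusted p = 0.0264). Stat2 and Irf9 were higher in relb-/- than in WT in 7 of 7 conditions, by 0.88 ± 0.15 (adjusted p = 4.32e-04) and 0.59 ± 0.13 (adjusted p = 0.00435). In crel-/-relb-/- against WT cells Stat2 and Irf9 differed by 0.02 ± 0.15 and -0.16 ± 0.13 and were not called. Ifnb1, encoding interferon beta, had 34.1 to 103 in crel-/-relb-/- cells, 96.9 to 487 in relb-/- cells, and 34.6 to 51.9 in WT cells, and was higher in relb-/- than in WT by 1.99 ± 0.24 (adjusted p = 8.76e-06). Ifng, also singled out after its values were seen, lay between 37.8 and 57.1 on all arrays, close to the median of all probes, and was not called.

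Of 10 peptide loading genes tested, 1 was higher and 3 lower in crel-/-relb-/- than in WT (background 15.4%). Besides Tap1, these were Tapbpl, a peptide editor, by -0.58 ± 0.10 (adjusted p = 3.71e-04) and the class I heavy chain H2-K1 by -0.33 ± 0.09, while H2-D1 was higher by 0.36 ± 0.10. In relb-/- against WT cells, H2-D1 alone was called, higher by 0.55 ± 0.10 (background 11.7%).

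Markers of dendritic and other cells differed between the same genotypes. Those named were picked after their values were seen. Of 9 dendritic cell genes tested, 1 was higher and 5 lower in crel-/-relb-/- against WT cells (background 15.4%), 0 higher and 3 lower in relb-/- against WT cells (11.7%), and 4 higher and 3 lower in crel-/-relb-/- against relb-/- cells (19.8%). Irf8, a transcription factor of dendritic cell development, was lower in crel-/-relb-/- cells by -0.90 ± 0.09 and in relb-/- cells by -0.88 ± 0.09 against WT cells. Lower in crel-/-relb-/- against WT cells were also the migration receptor Ccr7 (-0.78 ± 0.13) and the transcription factors Irf4 (-0.38 ± 0.08), Batf3 (-0.31 ± 0.07) and Zbtb46 (-0.23 ± 0.08), while the integrin Itgax was higher (0.33 ± 0.08). In relb-/- against WT cells, the class II genes Cd74 (-0.36 ± 0.06) and H2-Ab1 (-0.48 ± 0.09) were lower. The dendritic cell genes summed to 14543 to 25807 on crel-/-relb-/- arrays, 14862 to 19379 on relb-/- arrays and 17781 to 23322 on WT arrays. Cd74 and H2-Ab1 made up most of these sums.

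Of 7 macrophage genes, 3 were higher and 0 lower in crel-/-relb-/- against WT cells (Mertk by 0.72 ± 0.09, Mrc1 by 0.60 ± 0.17 and Adgre1 by 0.57 ± 0.09), 2 higher and 4 lower in relb-/- against WT cells, and 6 higher and 1 lower in crel-/-relb-/- against relb-/- cells. The backgrounds of these comparisons, here and for the eosinophil and B cell genes, were 15.4%, 11.7% and 19.8% of all genes called, in that order. They summed to 2937 to 7907 in crel-/-relb-/- cells, 1987 to 5637 in relb-/- cells and 2296 to 5989 in WT cells. Of 4 eosinophil genes, 2 were higher and 0 lower in crel-/-relb-/- against WT cells (Prg2 by 1.07 ± 0.10 and Ear6 by 1.00 ± 0.07), 1 higher in relb-/- against WT cells and 3 higher in crel-/-relb-/- against relb-/- cells, with sums of 335.4 to 1540.2 in crel-/-relb-/-, 235 to 933.4 in relb-/- and 215.9 to 871.1 in WT cells. Of 3 B cell genes, 0 were called by limma in either mutant against WT cells (2 at an unadjusted p under 0.05 in crel-/-relb-/- and 1 in relb-/- cells) and 2 were higher in crel-/-relb-/- against relb-/- cells, and Pax5 lay below the median of all values on every array.

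The T and NK cell genes, whose sums were lower in both mutants, had 0 higher and 5 lower of 6 in crel-/-relb-/- against WT cells, 1 higher and 5 lower in relb-/- against WT cells, and 3 higher and 1 lower in crel-/-relb-/- than in relb-/- cells. For these and the neutrophil genes the backgrounds were again 15.4%, 11.7% and 19.8%, in that order. Neutrophil genes summed to 2616 to 24520.3 in crel-/-relb-/- cells, 1639 to 25904 in relb-/- cells and 1043 to 23223 in WT cells, with 4 of 6 higher and 1 lower in crel-/-relb-/- against WT cells, 2 higher and 1 lower in relb-/- against WT cells, and 5 higher and 1 lower in crel-/-relb-/- against relb-/- cells. The highest of these sums were mostly Lcn2, with up to 20842 in relb-/- cells, and S100a8. Both were higher at 8 and 24 h than at 0 h in each genotype, so the sums follow stimulation. Of the neutrophil genes, Mpo lay below the median of all values on every array. The part of such cells in the immunoproteasome differences was not tested.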

How the data were processed

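Expression was measured on Illumina mouse bead arrays, 1 array for each of 3 genotypes in 7 conditions. The deposited values are linear intensities that the authors normalized between arrays. No label or header names the method. The scanner table's 21 columns could not be tied to samples and were not used. Of 25697 probes, 23978 had 1 gene symbol, updated through Entrez identifiers where possible. Intensities were taken to log2, with 1 probe per gene (the highest mean), and genes were tested where their 3rd highest intensity exceeded 47.3, the median of all values (10587 of 16593 genes). limma 3.58.1 in R 4.3.3 (lmFit, eBayes with an intensity trend) was fitted to genotype plus condition (12 residual degrees of freedom), and to genotype by late or early time (10) for the interactions. The 17 comparisons were adjusted by Benjamini-Hochberg over all genes tested, with calls at 0.05. All p-values are two-sided and adjusted unless stated. Errors are SE of fitted differences, or SD over conditions.

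The members, lists and tests were chosen with earlier results of these data known. Named with values were the 5 immunoproteasome genes and Psmb5, Psmb6 and Psmb7, and in each comparison up to 5 called members with the largest rise and up to 5 with the largest fall. For related lists these were up to 4 per direction. The statistics were tested on simulated data with independent noise for each gene. No simulated array had a wider spread than the others, so that test does not speak to the array that stood apart. Alternatives were quantile and cyclic loess normalization, normexp with an offset of 50, an offset of 16 before log2, no filter, the mean of a gene's probes, no intensity trend, leaving out each condition, and leaving out the array that stood apart. Promoters came from RefSeq's table for GRCm38.p6, matched by Entrez identifier for 5 of 5 immunoproteasome genes and 25 of 30 constitutive subunits. The deposited values carry no coordinates.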

Additional observations from a re-analysis of the deposited data

Results flagged for a closer look

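Of 27 sets of 7 within-condition differences between genotypes (9 measures in 3 comparisons), 5 held a condition far from the other 6 by Dixon's test. At the 95% level chance alone marks about 1 in 20 such sets. Of the 5, 3 were at the array that stood apart, that of crel-/-relb-/- cells after 24 h with CpG. There Psmb8 differed between crel-/-relb-/- and WT cells by 0.24 on the log2 scale, against -0.54 to -0.23 in the other conditions, and Psme2 by 0.30, against -0.39 to -0.20. On the same array Psmb6 differed between crel-/-relb-/- and relb-/- cells by 0.30, against -0.29 to -0.09 elsewhere. The other 2 cases involved other arrays. Psmb5 differed between crel-/-relb-/- and WT cells by 0.53 after 1 h with Pam3CSK4, against -0.25 to 0.04 in the other conditions, and at that condition the WT array had the lowest Psmb5 intensity of all arrays, 266. Psmb7 differed by -0.24 after 8 h with Pam3CSK4, against 0.03 to 0.22 elsewhere.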

How the results depend on the processing

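With single genes, 330 of the recomputed values kept their direction and side of the threshold, 10 gained a call, 7 lost it and 13 turned in sign, all of these last at differences near 0. Psmb6 in crel-/-relb-/- against WT cells (0.01) was -0.035 after quantile normalization and -0.035 after normexp with an offset of 50, and -0.061 to 0.067 with 1 condition or the array that stood apart left out. Psmb5 ranged there from -0.12 to 0.0086. In relb-/- against WT cells, Psmb7 (-0.03) was 0.11 with a gene's probes averaged and -0.066 to 0.0062 with conditions left out, Psmb9 ranged from -0.0072 to 0.13, and Psmb10 from -0.17 to 0.018. The number of members called between CpG and Pam3CSK4 at 24 h was 2 after quantile normalization, 2 after cyclic loess and 2 after normexp, against 1. With conditions or that array left out, it was 0 to 1 there, 0 to 1 at 8 h, 2 to 7 in relb-/- against WT, and 7 to 13 in crel-/-relb-/- against relb-/- cells. Fewer arrays entered these fits, and otherwise the cause was not tested. Under the scaling alternatives the median log2 difference over all genes was at most 0.0130 in size in every comparison. No paired analysis was possible because replicate numbers here stand for the conditions, which the fit already holds as a term. Without replicates within a condition, effects of single arrays cannot be told apart from those of conditions, and dim genes are limited by their unsubtracted background.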
